A study of Rattus norvegicus with 20 samples.

Results

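Resting monolayers of rat alveolar epithelial cells, unstretched and treated with vehicle only (group NS), were described gene by gene from their RNA. They are 5 of the 20 samples of the study and were chosen by their label alone, with no measured value in the choice. The cells began as primary type II pneumocytes of Sprague-Dawley rats, and the labels name no deletion or transgene in any group. They were kept for 4 days on silastic (silicone rubber) membranes coated with fibronectin, where, by the labels, they take on type I character. NS monolayers received 0.01% DMSO, an organic solvent serving as the vehicle, for 24 h and no stretch. Each sample held RNA pooled from 4 monolayers of 1 animal, and the number in the sample name was taken as the animal. The age and sex of the animals and the purity of the isolated cells are not given in the labels used here. The other 15 samples served only to measure how far libraries of the same animal differ. They are, 5 per group, monolayers stretched cyclically by 25% of their area at 15 cycles per min for 6 h in DMSO (S), unstretched monolayers with GSK2606414, which inhibits the kinase PERK, at 1 µM (NS_PI), and stretched monolayers with that inhibitor (S_PI).

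The alveolar surface is covered by a pair of epithelial cell types. Type II cells are cuboidal, store surfactant lipid in lamellar bodies and secrete the surfactant proteins, and they serve as progenitors. Type I cells are thin and flat, carry gas exchange and form most of the barrier against fluid. Type II cells plated on a firm substrate spread, lose surfactant gene expression and gain type I genes over days, and a transitional state with high keratin 8 is known from injured lungs.

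RNA was measured by 3' end sequencing (QuantSeq), which makes about 1 fragment per transcript, so levels are given as counts per 1000000 gene counts (CPM) without division by gene length. The 5 libraries held 1620142 to 1980087 counts assigned to 17337 gene symbols. A gene was taken as detected in a library at 3 or more counts, which equals 1.52 to 1.85 CPM depending on the library. A gene with no count in any of the 5 libraries could still lie at up to 0.331 CPM of their pooled counts, and this limit covers counting error only, since no molecular identifiers are named. A zero is also no proof of absence here. Genes that every cell uses were at or near 0 counts, among them Hprt1, Rps6 and Rpl37a at 0 in all 5 libraries and Tpi1, Myh9 and Rps9 below 0.2 CPM on average. Records that aligned to several places made up 38.1 to 51.9% of alignment records and gave no gene counts, so genes with near-identical copies, such as ribosomal protein, tubulin and MHC genes, may be understated. Values given below in a run of 5 belong to libraries 1 to 5 in that order.

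Of the 17337 genes, 8466 (48.8%) were detected in all 5 NS libraries, 1903 in 1 to 4 of them, and 1792 had some counts but never 3 in a library. No counts were assigned to 5176 genes (29.9%), of which 4094 also had none in the other 15 libraries. The counts were spread over many genes. A mean of 454 ± 41.4 genes (SD, n = 5) held 50% of the counts of a library. The 124 genes at a mean of 1000 CPM or more made up 29.3% of the mean profile, the 1918 genes between 100 and 1000 CPM made up 49.6%, and the 7499 genes under 1 CPM made up 0.0818%. A mean of 100 CPM or more was reached by 2042 of the 17337 genes, the share to hold beside such counts in the lists below. The 76 cytosolic ribosomal protein symbols held 4.56 to 6.18% of the counts.

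**Figure D1:**
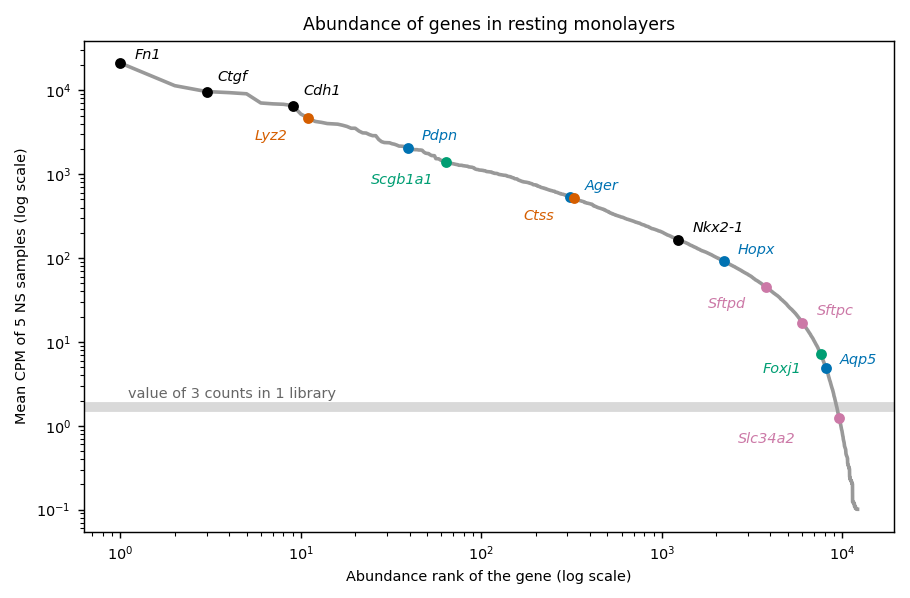
Mean CPM of 5 NS samples (log scale) against the abundance rank of each gene (log scale), with named genes marked in blue for type I, pink for type II, green for airway, orange for macrophage-related and black for other genes, and a grey band at the value of 3 counts in a library. The type I genes Pdpn (rank 39) and Ager (rank 310) lie far to the left of the surfactant gene Sftpc (rank 6018), and Scgb1a1 (rank 64) lies among the 100 most abundant genes. The order is not the same for all markers, since the type I gene Aqp5 lies to the right of Sftpc and the surfactant gene Sftpd to its left.

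The most abundant transcript was Fn1, which encodes the matrix glycoprotein fibronectin, at 21136 ± 10316 CPM (SD, n = 5). Its 5 values were 5962, 15197, 25815, 28083 and 30624 CPM, so library 1 held the least and libraries 3 to 5 the most. Clu, the secreted chaperone clusterin, came next with 2679, 14144, 9102, 11965 and 18934 CPM, again with library 1 far below the others. Ctgf, a matricellular growth factor and a target of the YAP, TAZ and TEAD transcription complex, was the third at 9666 ± 1898 CPM (SD, n = 5). Its values of 6694, 10516, 11592, 9014 and 10513 CPM lay within 1.73-fold of each other. Hspa5, which encodes the endoplasmic reticulum chaperone BiP, was the fourth with 6986, 11712, 9391, 8772 and 10048 CPM. Sparc, a collagen-binding matricellular protein, followed with 8304, 10029, 12089, 7734 and 7295 CPM.

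Among the 30 most abundant genes, matrix and adhesion genes stood beside lysosomal ones. The matrix and adhesion side held Fn1, Ctgf, Sparc, Col1a1 (a chain of type I collagen, mean 4016 CPM), Spp1 (osteopontin, 3979 CPM), Mfge8 (an integrin ligand, 4257 CPM), Cdh1 (E-cadherin, 6579 CPM) and Epcam (an epithelial adhesion molecule, 2442 CPM). The lysosomal side held the proteases Ctsd (6893 CPM) and Ctsb (2878 CPM), the sphingolipid activator precursor Psap (6811 CPM), the lysozyme Lyz2 (4678 CPM), Cd63 (3708 CPM), Grn (3109.5 CPM), Gpnmb (2961 CPM) and Laptm4a (2592 CPM). Secreted signals in this range were the monocyte chemokine Ccl2 (3835 CPM) and the clotting initiator F3, tissue factor (3091 CPM). Actin-related genes were Tmsb4x, which binds actin monomers (7062 CPM), Tpm1 (3529 CPM) and Csrp1 (4147 CPM). Other members were the ferritin chain Fth1 (3947 CPM), Lgals3 (3267 CPM), Sat1 (2876 CPM), the ribosomal gene Rps12 (3529 CPM) and the cytosolic chaperone Hsp90ab1 (2377 CPM).

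The order within this set was loose. The 30 genes with the highest mean shared 21 to 28 members with the 30 highest of each library, and 16 genes were in the 30 highest of all 5 libraries. Fn1 was 1 of 2 genes that lay above the gene ranked just below them in all 5 libraries. All other neighbours in the order changed places in at least 1 library. Some genes varied several-fold between the libraries, such as Lyz2 with 1064, 6989.8, 4932, 8059 and 2346 CPM and Ctsd with 1642, 5561, 10439, 10681 and 6143 CPM. Others were close together, such as Ctsb with 2513, 2604, 3179, 3020.1 and 3072 CPM and Sat1 with 2947, 3269, 2741, 2559 and 2865 CPM.

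**Figure D2:**
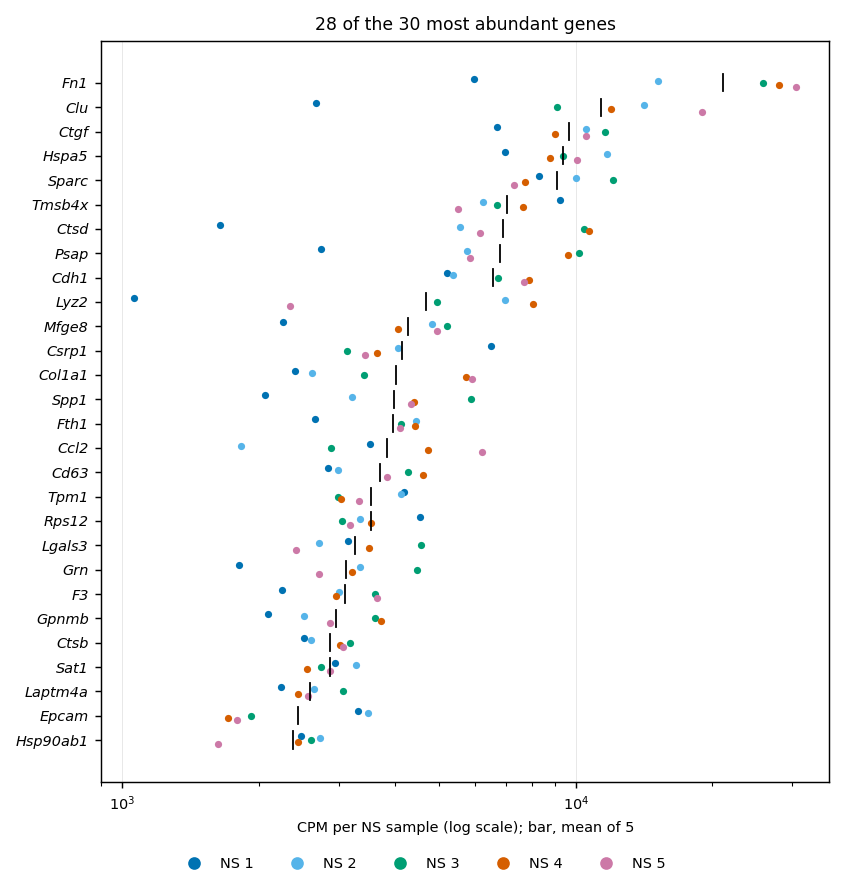
CPM (log scale) of 28 of the 30 genes with the highest mean in the 5 NS samples, with 1 point per sample and a bar at the mean. Fn1 stands at the top with a mean of 21136 CPM, and the points of Lyz2 and Ctsd are spread far more widely than those of Ctsb and Sat1.

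Ctgf and 3 other genes known as targets of TEAD factors, which act with the mechanosensitive coactivators YAP and TAZ, were picked after their values were seen. The list of caveolae and mechanosensing genes as a whole had 4 of 19 members at a mean of 100 CPM or more, against 2042 of all 17337 genes, and these 4 were the genes picked. Besides Ctgf, they were Ankrd1, an ankyrin repeat protein of stretched muscle (793, 549, 678, 1933 and 2163 CPM), Cyr61, a matricellular relative of Ctgf (564, 488, 623, 715 and 788 CPM), and Amotl2, a junction-associated inhibitor of YAP (330.3, 386, 622, 797 and 733 CPM). Libraries 4 and 5 were the highest for these last 3 genes, without overlap with libraries 1 to 3, while Ctgf showed no such order. Of all genes whose mean was 10 CPM or more, 13.5% likewise had both of their highest values in libraries 4 and 5. The coactivators and factors themselves had few counts, with Wwtr1 (TAZ) at 36.9 CPM, Tead1 at 5.37 CPM and Yap1 at 0.342 CPM on average. The core of the TEAD motif, GGAATG or CATTCC on the other strand, was looked for in the 250 bases upstream of the start of each of the 4 genes. Promoter windows were found for 3 of them, and all 3 held the motif, against 12.1% of 33469 windows of the same length (RefSeq, build GRCr8). The genes were picked as known TEAD targets, so this count is a description and no test of enrichment. The Ctgf window, listed in RefSeq as Ccn2, holds it 3 times, and 27 of the windows hold it 3 times or more. The 3 windows are shown 5′ to 3′ on the strand of the gene, with the motif in capitals, to let the spacing of the matches be seen. Ctgf lies at chr1:22624615-22624864 (minus strand), Cyr61, listed as Ccn1, at chr2:237225690-237225939 (minus strand) and Amotl2 at chr8:112182376-112182625 (plus strand). A match is a run of letters and not a measured binding site.
Ctgf: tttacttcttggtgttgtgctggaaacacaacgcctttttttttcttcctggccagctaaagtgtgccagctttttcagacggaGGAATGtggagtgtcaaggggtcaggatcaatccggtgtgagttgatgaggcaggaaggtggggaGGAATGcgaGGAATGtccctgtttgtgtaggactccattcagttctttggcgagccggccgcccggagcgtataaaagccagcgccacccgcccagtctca
Cyr61: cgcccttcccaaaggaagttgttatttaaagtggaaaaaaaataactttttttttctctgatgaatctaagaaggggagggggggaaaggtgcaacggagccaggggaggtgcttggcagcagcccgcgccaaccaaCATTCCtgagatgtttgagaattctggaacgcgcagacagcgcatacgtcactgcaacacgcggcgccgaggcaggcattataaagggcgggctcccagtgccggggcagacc
Amotl2: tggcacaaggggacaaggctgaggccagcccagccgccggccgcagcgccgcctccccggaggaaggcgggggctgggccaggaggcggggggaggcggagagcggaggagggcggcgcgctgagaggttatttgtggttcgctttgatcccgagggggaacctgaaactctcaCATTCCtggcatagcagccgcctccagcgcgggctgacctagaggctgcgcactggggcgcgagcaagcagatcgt

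The label of type I-like cells was then read against type I genes. Of 20 listed type I genes, all of which were in the table, 14 were detected in all 5 libraries, against 48.8% of all genes, and 9 had a mean of at least 100 CPM. The best known marker, Pdpn, the membrane mucin podoplanin, ranked 39 of all genes with 2943, 2866, 2394, 1005 and 1164 CPM. Ager, which encodes the receptor RAGE of type I cells, ranked 310 with 766, 901, 586, 198 and 207 CPM. In both genes libraries 4 and 5 were the lowest, with no overlap with libraries 1 to 3. Gprc5a, an orphan receptor of lung epithelium, gave 2264, 1501, 891, 407 and 494 CPM, and Timp3, an inhibitor of metalloproteinases, gave 1623, 1663, 1359, 265 and 206 CPM. Clic5, a chloride intracellular channel protein tied to the membrane skeleton, ranged 28.2-fold, with 865, 764, 568, 30.6 and 35.7 CPM. Its values in libraries 4 and 5 thus lay more than 10-fold below those of the other 3.

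Other type I genes were lower. Cldn18, the claudin of alveolar tight junctions, had 737, 607, 378, 211 and 279 CPM, and Emp2, an epithelial membrane protein, had 622, 405, 245, 85.4 and 81.3 CPM. Hopx, a homeodomain protein kept on in type I cells, had 185, 157, 71, 25.3 and 21.4 CPM, and Akap5, a kinase anchor, had 184, 84.7, 66.7, 8.84 and 2.75 CPM. Each of these 4 genes was lowest in libraries 4 and 5. Cav1, the caveolin that forms the abundant caveolae of type I cells in the lung, had 183, 61, 31.5, 25.9 and 44.5 CPM, with library 1 alone above 100 CPM. Igfbp2, reported in mature type I cells, had 26.3, 52.7, 78.4, 6.48 and 8.24 CPM, with libraries 4 and 5 again the lowest. Aqp5, the apical water channel used to mark type I cells, was close to the detection limit, with 18.2, 4.65, 1.23, 0 and 0.549 CPM. Col4a4 and Col4a3, chains of the alveolar basement membrane, averaged 5.56 and 2.07 CPM, and Limch1 and Cav2 averaged 7.67 and 4.7 CPM. Rtkn2 (0.874 CPM) reached 3 counts in library 1 alone, and Spock2 (0.227 CPM) in none. Ahnak and Agrn, which are also expressed outside type I cells, averaged 397 and 245 CPM and were flatter across the libraries.

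Summed over the list, type I transcripts made up 11254, 9753, 7407, 2763 and 3110.2 CPM. Libraries 4 and 5 thus held less than any of libraries 1 to 3. Of the 18 members with a mean of at least 1 CPM, 16 had both of their lowest values in libraries 4 and 5, against 18.5% of all genes whose mean was 10 CPM or more. This count was chosen after the values were seen. The libraries of animals 4 and 5 in the other groups gave the same order for 15 of the 18 members in NS_PI (all genes 18%), 12 in S (all genes 7.29%) and 12 in S_PI (all genes 9.89%). In bulk RNA, fewer cells of a type and less RNA per cell of that type cannot be told apart.

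**Figure D3:**
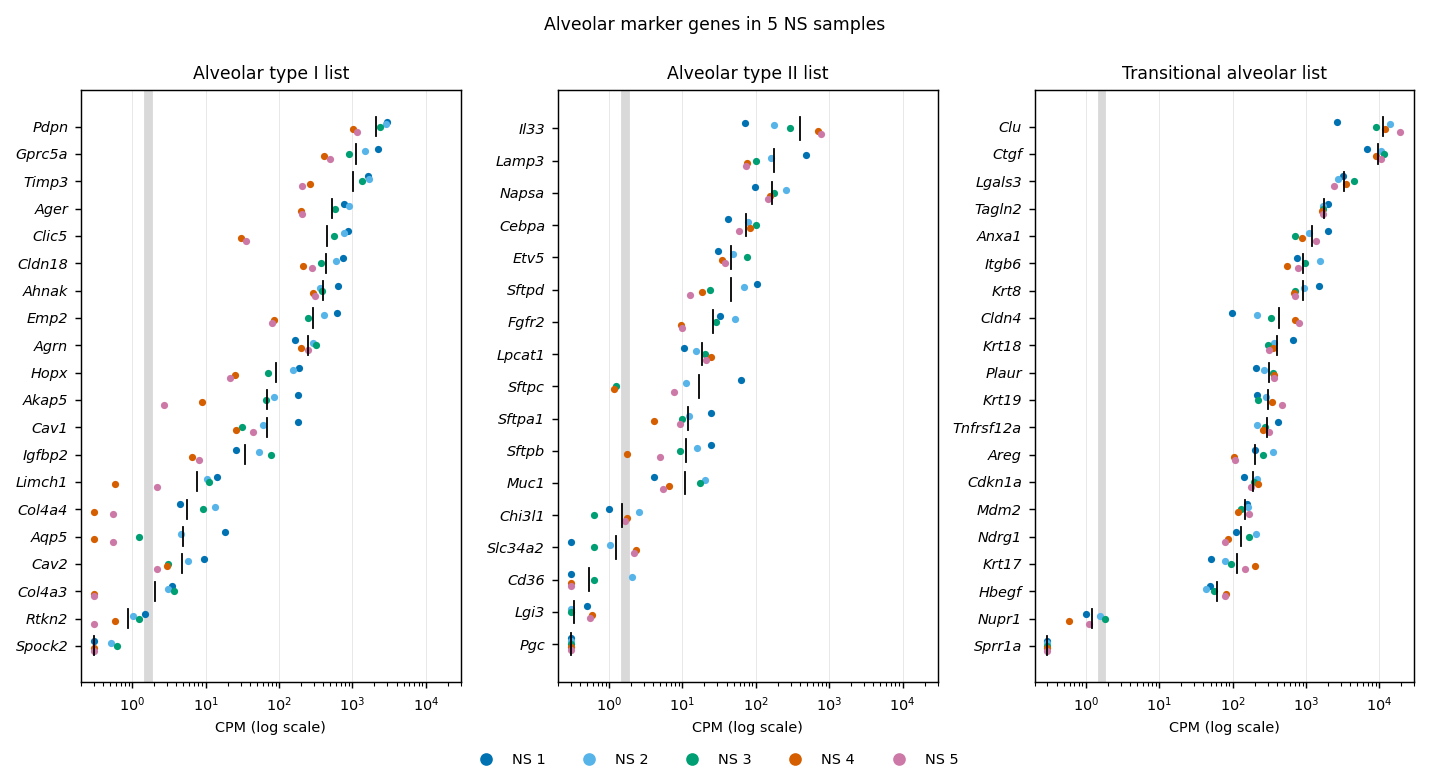
CPM (log scale) of every measured gene of the type I, type II and transitional lists in the 5 NS samples, with 1 coloured point per sample, a bar at the mean, a grey band at the value of 3 counts, and values under 0.3 CPM drawn at 0.3. Points of samples 4 and 5 lie to the left in most type I rows, the surfactant genes lie near or below 100 CPM, and most transitional genes lie above 100 CPM.

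Type II genes were detected but low. Of the 20 listed, 17 were in the table, and Abca3, Hc and Cxcl15 were not analysed here. Of these 17, 11 were detected in all 5 libraries (all genes 48.8%), and 3 had a mean of at least 100 CPM. Sftpc, the surfactant protein made by type II cells alone in the adult lung, had 63.6, 11.4, 1.23, 1.18 and 7.69 CPM, with library 1 above all others. Sftpb had 24.2, 16, 9.26, 1.77 and 4.94 CPM and Sftpd 104, 68.7, 24.1, 18.3 and 12.6 CPM, and Sftpa1 averaged 12 ± 7.48 CPM (SD, n = 5). Library 1 was the highest for all 4 surfactant protein genes. The Sftpc transcript ranked 6018, and Sftpb ranked 6833. Slc34a2, the phosphate transporter of type II cells, averaged 1.24 CPM, near the detection floor, and Lgi3 and Chi3l1 averaged 0.329 and 1.52 CPM. Pgc, pepsinogen C, had no counts.

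Members of the list that are not surfactant genes held most of its counts. Lamp3, a membrane protein of lamellar bodies that is also found in dendritic cells, had 477, 159.6, 101, 76 and 73.6 CPM. Napsa, the protease that processes surfactant protein precursors, had 96.5, 258, 177, 157 and 145 CPM, and the transcription factors Cebpa and Etv5 averaged 72.7 and 45.6 CPM. Il33, a nuclear alarmin that in rodents is found in type II cells, was the highest member with 71.2, 176, 296, 701 and 774 CPM. It took 39.9% of the summed mean of the list, and libraries 4 and 5 were its highest, whereas they were the lowest for Lamp3. The list summed to 982, 923, 861, 1122 and 1164 CPM, which hid these opposite orders. The 2 sums of the type I and the type II list differ in their members and are not a ratio of cells.

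By summed CPM, transitional genes were the most abundant of the 3 alveolar sets. Of the 22 listed, Krt7 and Sfn were not analysed here. Of the other 20, 18 were detected in all 5 libraries (all genes 48.8%) and 17 had a mean of at least 100 CPM (2042 of all 17337 genes). The list summed to 31692 ± 6817 CPM (SD, n = 5), of which Clu gave 35.9%. Without Clu it held 18367 to 22627 CPM in the 5 libraries. Much of this rest came from Ctgf, also a member of the list, with a mean of 9666 CPM. Lgals3, the lectin galectin 3, had 3150.4, 2713, 4554, 3497 and 2419.5 CPM. Krt8, the keratin that names the state in mouse lung, had 1499.9, 945, 711, 685 and 706 CPM, and its partner Krt18 had 656, 367, 302, 360.1 and 314 CPM. Library 1 was the highest for both. Krt19 (214, 286, 221, 349 and 466 CPM) and Krt17 (51.5, 78.5, 95.7, 203 and 149 CPM) were instead highest in libraries 4 and 5. Cldn4, a claudin raised in injured alveoli, had 98.5, 213, 331, 707 and 797 CPM, with library 1 the lowest and libraries 4 and 5 the highest.

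The secreted and surface members of the transitional list were all detected. Itgb6, the subunit of an integrin that activates TGF-beta, had 750.0, 1559, 959.8, 548 and 785 CPM. Areg, a ligand of the EGF receptor, had 200.5, 353, 258, 103 and 108 CPM, with libraries 4 and 5 the lowest, and Hbegf, a second ligand, had 49.5, 42.9, 55.6, 82.5 and 78 CPM, with libraries 4 and 5 the highest. Cdkn1a (p21, an inhibitor of the cell cycle) averaged 191 ± 32.5 CPM (SD, n = 5), and Mdm2, which opposes p53, averaged 147 ± 21.8 CPM (SD, n = 5). Plaur, Tnfrsf12a and Ndrg1 averaged 314, 294 and 130.3 CPM. Anxa1 and Tagln2 averaged 1208 and 1760.2 CPM. Nupr1 averaged 1.22 CPM, and Sprr1a had no counts. Several members, among them Clu, Lgals3, Anxa1 and Tagln2, are also expressed by macrophages or mesenchymal cells.

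General epithelial genes had an even sum, in which members of opposite order offset each other. The 18 listed summed to 12102 ± 505 CPM (SD, n = 5), with 17 detected in all 5 libraries (all genes 48.8%). Cdh1 had 5209.9, 5362, 6728, 7892 and 7702 CPM and Epcam had 3307, 3477, 1925, 1714 and 1787 CPM. Spint2, a protease inhibitor of epithelial surfaces, had 858, 1399.8, 1196, 1241 and 1262 CPM. Nkx2-1, the transcription factor that defines lung epithelium, averaged 166 ± 68.7 CPM (SD, n = 5), and Foxa2 averaged 491 ± 144 CPM (SD, n = 5). Foxa1, in contrast, averaged 0.314 CPM, less than the value of 3 counts.

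Among junction genes, Cldn18 (443 CPM) and Cldn4 (429 CPM) were the most abundant claudins. Library 1 held 737 CPM of Cldn18 and 98.5 CPM of Cldn4, whereas library 5 held 279 and 797 CPM, so the order of the pair turned between animals. Cldn6, Cldn7 and Cldn3 averaged 88.9, 87.5 and 60.6 CPM, and Cldn5, Cldn15, Cldn16, Cldn19, Cldn20 and Cldn22 had no counts. Tjp1 and Crb3, which scaffold tight junctions and polarity, averaged 166 and 189 CPM. Gja1 (connexin 43) was the leading gap junction gene with 2777, 2852, 1874, 1701 and 2171 CPM. Atp1b1, a subunit of the sodium pump that drives clearance of alveolar fluid, averaged 478 CPM. Scnn1g, which encodes a subunit of the sodium channel ENaC, had 166, 121, 66.7, 5.89 and 6.04 CPM and so was lowest in libraries 4 and 5, as Clic5 was, while Scnn1a averaged 58.9 CPM and Scnn1b 7.18 CPM.

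Of 16 measured keratins, 4 had a mean of at least 100 CPM and together made up nearly all of the keratin counts. They were Krt8, Krt18 and Krt19, keratins of simple epithelium, and Krt17, a keratin of basal and stratified epithelium. Krt14 and Krt15 averaged 4.5 and 2.72 CPM, and Krt5, Krt1, Krt4, Krt13, Krt20 and Krt84 had none. Basal cell genes summed to 12 ± 5.72 CPM (SD, n = 5) over 9 measured genes, and Tp63, the factor that defines these cells, averaged 0.669 CPM. Neuroendocrine genes summed to 4.22 ± 2 CPM (SD, n = 5) over 8 measured genes, with Chga, Syp and Nkx2-2 at 0.

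One airway gene was an exception. Scgb1a1, the secretoglobin of club cells, ranked 64 of all genes with 619, 783, 1031, 2197 and 2281 CPM, and libraries 4 and 5 were the highest. It gave 96.8% of the summed mean of its list of 10 measured airway secretory genes. The other secretoglobins of the list, Scgb3a1 and Scgb3a2, averaged 0.743 and 0.55 CPM, and the secretory genes Bpifb1 and Reg3g had no counts. Pigr, the receptor that carries antibodies across epithelium, averaged 43.8 CPM. Ciliated cell genes were low, at 40.7 ± 21.9 CPM (SD, n = 5) summed over 8 genes, with Foxj1, the factor that drives cilia formation, at 0, 6.2, 8.64, 3.54 and 17 CPM. The contrast between Scgb1a1 and Sftpb is shown with their promoter windows, since both are classic targets of NKX2-1. The motif core CTCAAG or CTTGAG occurred in 13.3% of the 33469 windows. It was in 5 of 10 airway secretory genes, 1 of 13 type II genes and 2 of 19 type I genes with a window. Besides Scgb1a1, the airway genes with the motif were Scgb3a1, Scgb3a2, Bpifa1 and Spdef, none of which was detected in all 5 libraries. Scgb1a1 (chr1:215409687-215409936, minus strand) holds the motif 1 time and Sftpb (chr4:105917338-105917587, plus strand) 2 times, in capitals below. The mean level of Scgb1a1 was 1382 CPM against 11.2 CPM for Sftpb. Whether the motif bears on these levels was not tested.
Scgb1a1: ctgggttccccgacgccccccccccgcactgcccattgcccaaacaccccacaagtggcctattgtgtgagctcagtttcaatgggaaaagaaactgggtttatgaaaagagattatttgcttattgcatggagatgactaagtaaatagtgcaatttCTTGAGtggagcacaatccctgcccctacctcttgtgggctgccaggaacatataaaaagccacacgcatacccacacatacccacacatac
Sftpb: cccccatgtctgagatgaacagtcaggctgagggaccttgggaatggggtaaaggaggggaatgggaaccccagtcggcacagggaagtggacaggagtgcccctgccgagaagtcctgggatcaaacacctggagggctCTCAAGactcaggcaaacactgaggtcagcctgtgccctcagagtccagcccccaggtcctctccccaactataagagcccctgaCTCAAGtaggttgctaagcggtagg

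Macrophage transcripts were present in all 5 libraries. Of 22 listed genes of macrophages and monocytes, 16 were detected in all 5 (all genes 48.8%). The list summed to 1029, 2362, 3295, 3659 and 2252 CPM, with library 1 the lowest. Laptm5, a lysosomal protein of leukocytes, had 200.5, 603, 971, 949 and 404 CPM, and the protease Ctss had 153, 462, 681, 810.3 and 458 CPM. Tyrobp and Fcer1g, which signal below immune receptors, averaged 261 and 249 CPM, and Ptprc, the pan-leukocyte surface protein CD45, averaged 100.1 CPM. Marco and Cd163, receptors of alveolar and other tissue macrophages, had no counts. Vsig4, a complement receptor of resident macrophages, varied widely, with 2.53, 190.1, 26.5, 246 and 132 CPM. Lyz2, which both macrophages and rat type II cells make, had 4678 CPM, and its lowest value was in library 1. The part of macrophages in Lyz2, Ctsd or other lysosomal genes was not tested. MHC class II genes, likewise shared, were low, with Cd74 at 103 CPM.

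Other leukocytes were near the floor. Lymphocyte genes summed to 12.1 ± 4.45 CPM (SD, n = 5) over 15 measured genes, with Lck, the most abundant, at 5.35 CPM. Neutrophil and mast cell genes summed to 7.58, 11.9, 9.88, 66.6 and 42.3 CPM. The most abundant members were S100a9 (2.02, 3.62, 1.85, 42.4 and 14.3 CPM) and S100a8 (1.52, 3.62, 5.56, 17.1 and 24.7 CPM), calcium-binding proteins that stressed epithelium can also make. Mpo, Elane, Ngp, Cpa3, Tpsab1, Mcpt1 and Fcer1a, which define neutrophil precursors and mast cells, had no counts.

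Mesenchymal genes gave a mixed picture. Fibroblast genes summed to 3077, 2932, 3744, 6351 and 6623 CPM, of which Col1a1 gave 88.3%. Without Col1a1 the list, Col3a1 included, held 315 to 724 CPM. Col1a1 had 2408, 2617, 3421, 5734 and 5899 CPM and Col3a1 628, 245, 253, 521 and 637 CPM, while Col1a2, whose product pairs with that of Col1a1, averaged 1.42 CPM. Several genes more particular to fibroblasts were low, with Dcn (decorin) at 11.5 CPM, Pdgfra at 4.54 CPM and Lum at 1.7 CPM. Thy1 was at 0.118 CPM, Tcf21 at 0.101 CPM, and Fgf10 and Mfap4 at 0. Of the 14 measured fibroblast genes, 7 were detected in all 5 libraries (all genes 48.8%), and 5 had a mean of at least 10 CPM. Between animals 8 members had enough counts to be tested, and all 8 differed (all genes 47.4%), among them Postn, Eln, Fbln1 and Pdgfrb. Smooth muscle genes summed to 1916 ± 518 CPM (SD, n = 5), with Tagln at 1571, 807, 582, 770.2 and 1128 CPM and Acta2 at 892, 510.3, 823, 829 and 1035 CPM. Myh11, the myosin that marks mature smooth muscle, averaged 1.73 CPM, and the pericyte genes Rgs5 and Notch3 had no counts. Whether these transcripts came from epithelial or mesenchymal cells was not tested.

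Endothelial genes were low. The 16 listed summed to 192 ± 61.2 CPM (SD, n = 5), of which 63.6% was Esam, an adhesion molecule that is not restricted to endothelium. Without Esam the list held 44.4 to 96.6 CPM. Of its 16 members, 6 were detected in all 5 libraries (all genes 48.8%), and 5 had a mean of at least 10 CPM, against 7035 of all 17337 genes. Between animals 7 members had enough counts to be tested, and 5 differed (all genes 47.4%), namely Esam, Flt1, Eng, Ednrb and Car4. Pecam1, Cdh5, Cldn5 and Plvap, which define endothelium, had no counts, which is no proof of absence here, and Kdr and Vwf averaged 0.545 and 0.536 CPM. Mesothelial genes summed to 455, 179, 209.9, 236 and 294 CPM. Their main member was Msln, mesothelin (178, 96.6, 112, 171 and 214 CPM). Wt1, the transcription factor of mesothelium, had 95.5, 33.6, 32.1, 15.9 and 15.4 CPM, and Upk1b had 92.9, 27.9, 44.4, 35.9 and 47.8 CPM, so library 1 stood above the others in both. Red cell genes summed to 1.24 ± 0.675 CPM (SD, n = 5), with the globins Hba1, Hba2, Hbb and Hbb-b1 at 0.

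**Figure D4:**
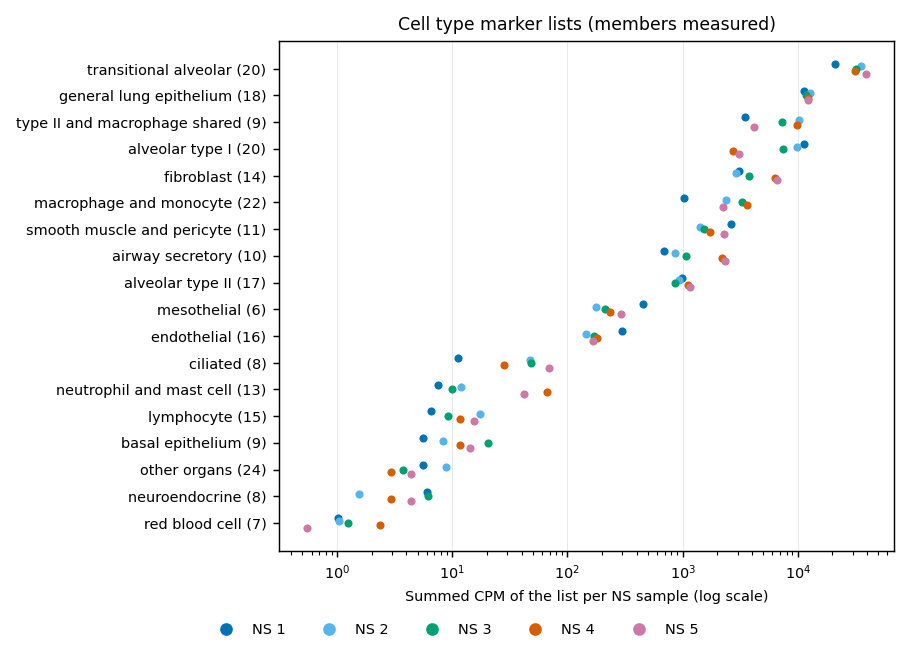
Summed CPM (log scale) of each cell type list in the 5 NS samples, with 1 coloured point per sample and the number of measured genes in parentheses. The transitional and general epithelial lists lie highest, while lists of other organs, red cells and neuroendocrine cells lie below 10 CPM.

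A list of 24 measured genes of liver, muscle, brain, pancreas, kidney and other organs gave a measure of background. It summed to 5.08 ± 2.28 CPM (SD, n = 5), 22 of its members never reached 3 counts in a library, and 11, among them Ttr, Ckm, Gfap, Umod and Ins2, had no counts. The red cell and neuroendocrine sums lay below this value, and the basal and lymphocyte sums, at 12 and 12.1 CPM, were the lowest of those above it. Lists differ in their number of genes, so the sums are descriptions of the lists and not shares of cells.

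Matrix and cytoskeletal genes were led by a few abundant members. The 25 measured genes of collagens, laminins and fibronectin, with Sparc, summed to 20871, 33995, 46623, 44876 and 47800.4 CPM, and Fn1 gave 54.4% of the mean. Col16a1, a fibril-associated collagen, had 768, 2848, 1967, 309 and 324 CPM and thus differed 9.2-fold between libraries. Integrins were led by Itgb1 (1099.9 CPM) and Itgb6. Of the 37 measured actin cytoskeleton genes, 28 had a mean of at least 100 CPM, and their sum was 32852 ± 4077 CPM (SD, n = 5). Vim, the intermediate filament of mesenchymal and of cultured epithelial cells, had 3637, 1845, 1469.6, 1382 and 1502 CPM, with library 1 the highest. Anxa5 had 1936, 1864, 1125, 527 and 647 CPM, in the order of the type I genes, and S100a6 had 3726, 2659.7, 1947, 1613 and 1894 CPM.

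Genes of the protein folding response were abundant at rest. Of 32 measured genes of chaperones and stress sensors, 31 were detected in all 5 libraries (all genes 48.8%). A mean of at least 100 CPM was reached by 20 of the 32, against 2042 of all 17337 genes. After Hspa5, the highest were Calr (1941 ± 500.3 CPM (SD, n = 5)), the transcription factor Atf4 (1527 ± 338 CPM (SD, n = 5)), Hsp90b1 (1524 ± 354 CPM (SD, n = 5)) and Pdia3 (1338 ± 94.1 CPM (SD, n = 5)). Eif2ak3, which encodes PERK, the kinase that the study inhibits in other groups, averaged 128 ± 32.6 CPM (SD, n = 5). Its target Ddit3 (CHOP) averaged 78.4 CPM, Trib3 84 CPM and Atf3 53.5 CPM. The sensors Atf6 and Ern1 averaged 23.2 and 0.542 CPM, and Xbp1 averaged 248 CPM.

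Signals to other cells were dominated by a few genes. Of 53 measured ligands and cytokines, 33 were detected in all 5 libraries (all genes 48.8%) and 12 had a mean of at least 100 CPM (2042 of all 17337 genes). Spp1 had 2063, 3215, 5879, 4397 and 4339 CPM and Ccl2 had 3513, 1825, 2889, 4722 and 6226 CPM. Tgfb2, a TGF-beta isoform, was even across libraries at 588, 646, 642, 555 and 529 CPM, whereas Inhba, the activin A subunit, had 102, 113, 297, 724 and 484 CPM. Cxcl16 averaged 524 CPM, Cxcl1 326 CPM and Vegfa 271 CPM. Tnf, Csf2, Lif, Egf, Fgf9 and Shh had no counts. Receptors for growth factors had fewer counts. Of 36 measured, 2 reached a mean of 100 CPM (Il6st, 199 CPM, and the glucocorticoid receptor Nr3c1, 115 CPM), while Erbb2, Erbb4 and Fgfr4 had no counts and Egfr averaged 4.62 CPM.

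Transcripts of cell division were widely detected at low to moderate levels. Of 31 listed genes, 30 were detected in all 5 libraries (all genes 48.8%), the median member had a mean of 21.6 CPM against 3.08 CPM for all genes, and 6 reached a mean of 100 CPM. Mki67 averaged 11.6 CPM, Top2a 16.2 CPM and Ccnb1 20.6 CPM. The highest was an inhibitor, Cdkn2b (p15), with 677, 1364, 1339, 605 and 737 CPM, followed by Ccnd1 (287 CPM), Cdkn1a and Pcna (158 CPM). Among lung transcription factors, Klf6 (809 ± 43.1 CPM (SD, n = 5)), Sox4 (745 ± 141 CPM (SD, n = 5)) and Stat3 (621 ± 47.2 CPM (SD, n = 5)) were the highest. Antioxidant genes were widely detected, 28 of 29 in all 5 libraries (all genes 48.8%). Hmox1, heme oxygenase 1, had 550.0, 642, 1609, 1274 and 869 CPM, and Sod2, the mitochondrial superoxide dismutase, had 537, 514, 913, 1503 and 1637 CPM, with libraries 4 and 5 the highest.

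Animals differed more than libraries of 1 animal. Each animal gave 1 NS library, so NS alone holds no replicate of an animal. Animals were therefore compared over all 20 libraries in edgeR by a quasi-likelihood F test, with the group as covariate, 12 residual degrees of freedom and Benjamini-Hochberg adjustment over 8320 genes. At an adjusted p below 0.05, 3945 genes (47.4%) differed between animals. With animal 1 left out the number was 2213 (26.9%), and with the NS libraries left out it was 2799 (34.6%). The common biological coefficient of variation was 31.2% over the NS libraries and 19.1% once group and animal were accounted for. The share was 49.1% of the genes at 10 CPM or more in NS and 56.7% of those at 100 CPM or more.

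Alveolar genes were among those that differed. Of the 20 type I genes, 16 had enough counts to be tested, and 15 differed between animals (all genes 47.4%). Without animal 1, 13 differed (all genes 26.9%). The adjusted p of the edgeR test was 8.29e-09 for Hopx, 1.65e-08 for Clic5 and 5.66e-07 for Ager, and without animal 1 it was 6.46e-10, 1.30e-12 and 2.34e-08. In animal 4 Hopx had 25.3 CPM in NS and 23 to 27.6 CPM in its other 3 libraries, against 157 CPM and 74.4 to 102 CPM in animal 2. In animal 1, however, Clic5 had 865 CPM in NS and 55.3 to 891 CPM in its other 3 libraries, so libraries of 1 animal in different groups also differed widely. Cav1 lost its call without animal 1 (adjusted p 6.81e-07 and 0.285), and Ahnak did not pass (adjusted p 0.462). Of the 17 type II genes, 12 were tested and 11 differed (all genes 47.4%), and 9 did so without animal 4 (all genes 41.8%). The adjusted p by the same edgeR test was 6.70e-06 for Sftpc, 0.00125 for Lamp3 and 2.12e-06 for Il33. Etv5 did not pass (adjusted p 0.0572). In animal 5 Il33 had 774 CPM in NS and 913 to 1125 CPM in the other 3 libraries, and in animal 2 it had 176 CPM and 149 to 185 CPM.

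Of the 20 transitional genes, 18 were tested and 14 differed (all genes 47.4%), and 9 did so without animal 1 (all genes 26.9%). Cldn4 (adjusted p 6.88e-04) lost its call without it (0.914), as did Clu (adjusted p 1.20e-07 and 0.0683). Krt8 (adjusted p 2.72e-04) and Krt17 (1.90e-04) kept their calls, with 0.0118 and 0.00656. The most abundant gene, Fn1, had an adjusted p of 7.15e-05, and 0.47 without animal 1. Scgb1a1 likewise went from 1.48e-04 to 0.461, so for these 4 genes the call rested on animal 1. Macrophage genes, in contrast, differed in all 17 tested members with and without animal 1 and in 16 without animal 2 or animal 4, and Lyz2 had an adjusted p of 1.52e-10. Of general epithelial genes, 10 of 17 tested differed, a share near the 47.4% of all genes and the 49.1% of those at 10 CPM or more, and Cdh1 did not pass (adjusted p 0.113).

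**Figure D5:**
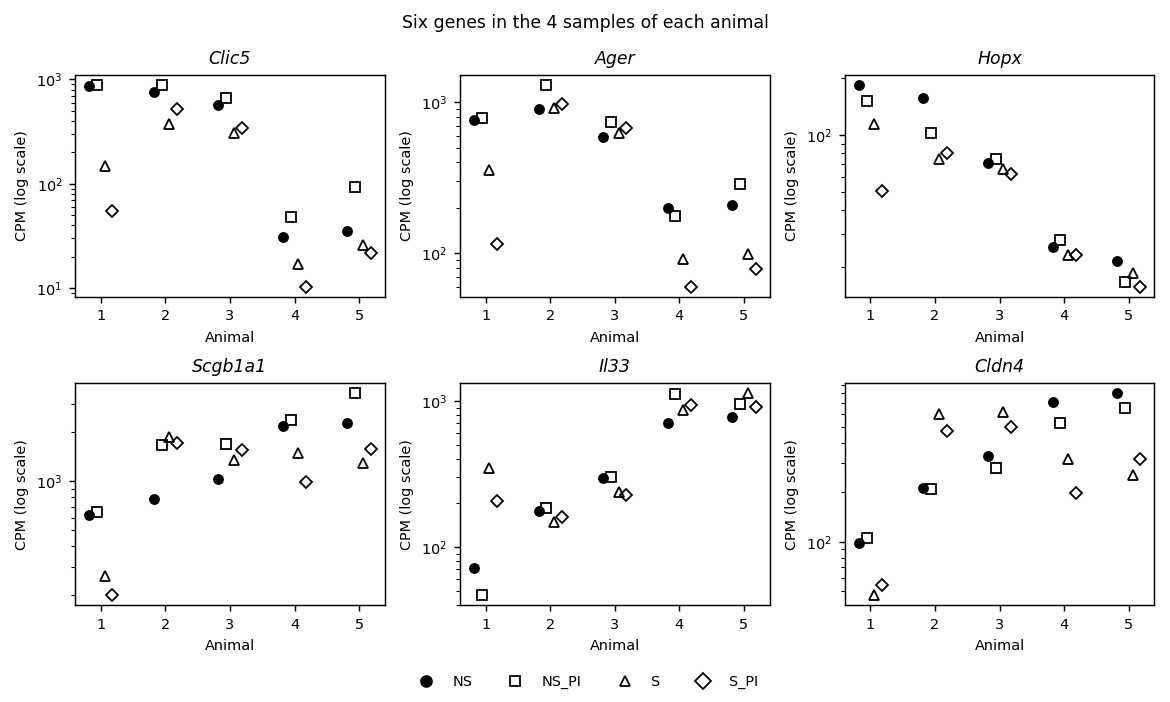
CPM (log scale) of Clic5, Ager, Hopx, Scgb1a1, Il33 and Cldn4 in the 4 samples of each of 5 animals, with filled circles for NS and open symbols for the other groups. NS values of Clic5, Ager and Hopx are lowest in animals 4 and 5 and those of Il33 and Cldn4 highest there, and animal 1 shows a wide spread between its samples for Clic5 and Ager.

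The 10 genes with the widest range over the NS libraries, among those that differed between animals and had a mean of at least 50 CPM, included 4 that were lowest in libraries 4 and 5, as many type I genes were. They were Clic5, Akap5 (67.2-fold from the lowest to the highest library), Scnn1g (28.2-fold) and Fam111a (164, 802, 540.1, 10.6 and 9.33 CPM). A pair was highest in libraries 4 and 5, namely Lcn2, lipocalin 2 (68.2, 59.4, 29, 523 and 965 CPM), and Slc26a4, the anion exchanger pendrin (10.6, 10.8, 6.17, 155 and 141 CPM). Ubd, a ubiquitin-like protein induced by inflammatory cytokines, had 1.52, 88.8, 63.6, 129.6 and 13.7 CPM. A further pair was high in a single library each. Ly6al had 1.52, 0.517, 0.617, 368 and 10.4 CPM, and in the other 3 libraries of animal 4 it had 309 to 548 CPM. Fam180a had 232, 6.71, 4.94, 5.3 and 1.65 CPM, and in the other 3 libraries of animal 1 it had 138 to 197 CPM. Vsig4 completed the set.

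The 10 steadiest genes among those averaging 100 CPM or more were Nars, Socs5, Vimp, Prkcsh, Degs1, Vapa, Atpif1, Clta, Cox8a and Cox5b. Nars, which charges asparagine transfer RNA, had 321, 322, 316, 319 and 317 CPM. Clta, a clathrin light chain, had 563, 582, 599, 609.9 and 616 CPM, and Cox5b, a subunit of cytochrome c oxidase, had 295, 283, 278, 306 and 283 CPM. Any other gene of this range is less even than these 10 by the way they were chosen. Usual reference genes had values such as 1901, 1576, 2125, 2467 and 1643 CPM (Actb), 295, 149, 73.5, 112 and 125 CPM (Gapdh) and 1853, 2687, 2047, 2436 and 2514 CPM (B2m). Between animals Actb did not pass (adjusted p 0.054, edgeR test), while Gapdh and B2m differed. The median coefficient of variation over the 5 libraries was 20.9% for genes between 100 and 1000 CPM, where counting error alone gives a median of 5.45%, and 26.1% for genes between 10 and 100 CPM, where it gives 13%. For genes at 1000 CPM or more, the range of Actb and B2m, it was 20.4%, where counting error gives 1.96%.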

How the data were processed

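RNA of 20 monolayer samples was measured, and levels are described for the 5 NS samples. Per the submitters' processing notes, the authors used STAR, build rn6 and HTSeq; tool versions and annotation are not given in sources used here. The deposited table holds raw counts per gene symbol. HTSeq summary entries, such as records outside genes (17.4 to 24.5% in NS), were left out of totals. A deposited DESeq2 comparison was not used. CPM were computed from gene counts; 696 of 744 listed symbols were in the table, and 230 of 307 named genes had a promoter window.

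The members, gene lists and tests were chosen with earlier results of these data known. The named genes were the 30 most abundant, all alveolar list members, the 5 highest and the zero-count members of other lists, the 10 most variable and the 10 steadiest genes; other list members, such as Nkx2-1, Ptprc and Eif2ak3, were named after their values were seen, and a few genes that the rule names are not reported here. Animals were compared with edgeR 4.0.16 in R 4.3.3 (TMM, filterByExpr on group), checked on simulated data; DESeq2 1.42.0, other scalings, filters, floors and omitted samples were alternatives. The labels' pooling of monolayers per animal and a deposited file name that speaks of controlling for rat point to the number as the animal. Deviations from group means correlated at 0.334 to 0.816 over 30 same-numbered pairs and at a median of -0.199 over 160 others, and all 20 libraries correlated best with their own number. The labels name no batch.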

Additional observations from a re-analysis of the deposited data

Results flagged for a closer look

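A library was marked where it stood apart from the other 4 of its group by a gap over Dixon's 95% critical value for 5 samples. Of 221 sets of 5 NS values tested, 18 were marked. Chance marks about 1 set in 20 where sets are independent and normally distributed. These sets share the same 5 libraries and include list sums and genes named for their wide range, so that rate is not the expectation here. Library 1 was the high one in 15 of these and the low one in 1. Among mesothelial genes it was high for Wt1 (95.5 CPM), Rspo1 (56.1 CPM) and Gpm6a (32.3 CPM). Among actin and filament genes it was high for Vim (3637 CPM), Csrp1 (6492 CPM), Tagln2 (2008.5 CPM), Des (123 CPM) and Krt18 (656 CPM). Among alveolar genes it was high for Lamp3 (477 CPM), Sftpc (63.6 CPM), Cav1 (183 CPM) and Ahnak (639.9 CPM). The summed endothelial list was high in it at 299 CPM, which follows from its main member Esam (244 CPM). Fam180a (232 CPM) was high and Fth1 (2665 CPM) low in library 1. Ly6al was high in library 4 (368 CPM), and Hsp90ab1 was low in library 5 (1625 CPM).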

How the results depend on the processing

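Of 228 named levels, none moved by over 1 SD under TMM or DESeq2 size factors, and 22 did with the 10 most abundant genes left out of the total. The median and leaving out 1 library also moved none. Neither can shift the mean of 5 values by over 1 SD of those values, so these settings could not have shown a move. Detected genes numbered 9430 at 1 count, 7024 at 10 counts and 8852 at 1 CPM. Members detected in all 5 libraries changed at the floor: at 10 counts basal 0, ciliated 0, lymphocyte 0, neutrophil and mast cell 0, fibroblast 4 and endothelial 3, and at 1 count ciliated 5, neuroendocrine 2 and lymphocyte 2. Genes that differed between animals numbered 2213 to 3618 with an animal left out, lowest without animal 1 (1993 of them among the 3945), and 4133 with DESeq2. Of 140 named genes that differed, 82 did so in every alternative, and 33 were lost without animal 1. Leaving out mitochondrially encoded genes was not run, since none is in the table. No paired analysis was possible because levels in NS were compared with no other group, and the test between animals already uses the replicate number, which a block would remove.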

Other observations

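Glycolysis genes were moderately abundant, with 16 of 21 detected in all 5 libraries (all genes 48.8%). Pgk1 had 626, 553, 546, 714 and 701 CPM and Pgam1 449, 445, 671, 783 and 650.0 CPM, and the lactate exporter Slc16a3 had 57.1, 132, 205, 248 and 250.3 CPM, lowest in library 1. Slc2a1, the glucose transporter, averaged 76.4 CPM, and Slc2a3 had no counts. Proteases and their inhibitors were led by Ctsd. Mmp14, a membrane-bound matrix metalloproteinase, averaged 716 CPM, Timp1 568 CPM and Mmp12, the elastase of macrophages, 303 CPM, while Mmp1 had no counts. Ctsh, a lysosomal protease used in surfactant processing, had 1601, 2429, 1116, 512 and 726 CPM and was thus lowest in libraries 4 and 5.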
